A study of Zea mays with 4 samples.

Results

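zap1 and m24 are MADS-box transcription factor genes of maize. They are 2 of the 1108 genes that the platform's annotation names on the array, and each is measured by 1 probe set, so the pair stands for 2 of 17555 maize probe sets. The probe sets were found by gene symbol or synonym, for zap1 under LOC542257 and for m24, also listed as zmm24, under LOC542038. The pair was chosen by its measured difference between the lines F98908 and Cm489 in these same arrays, so that difference is described here without a test and supports nothing further.

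The series compared aerial material of the maize lines Cm489 and F98908 on Affymetrix maize arrays, with 2 arrays per line, in a project on cell wall diversity and digestibility. Plants of both lines were 21 days old, at the stage of 7 leaves, and grew in compost under a light period of 16 h and a dark period of 8 h, at a humidity of 50%. No treatment, mutation or transgene is given for either line. The labels do not say which organs of the shoot were pooled, or whether separate plants were used for each array, so the p-values below measure only the spread between these arrays, which may be technical. The extract labels of Cm489 name 177 and 170 ug of RNA, whereas both F98908 arrays carry the same extract label of 213 ug.

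MADS-box proteins bind DNA as dimers and as larger complexes, and they set the identity of meristems and floral organs. zap1 is a homologue of Arabidopsis APETALA1 and belongs to the AP1/FUL clade, whose members mark the change of a shoot tip from making leaves to making flowers. m24 belongs to the SEPALLATA clade, whose proteins act as partners that bring other MADS-box proteins together in inflorescence and floral meristems.

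All values are deposited GCRMA values on a log2 scale, for which a step of 1 is a 2-fold change in signal. The array medians over the maize probe sets ran from 6.67 to 6.69, and 17 tag control probe sets, which have no target in the plant, lay between 1.71 and 2.33. Values under log2 4 are taken as dim and without a reliable order. For the 11262 tested probe sets, the size of the difference between the Cm489 arrays had a median of 0.207, and that for F98908 was 0.131, whereas it was 0.282 to 0.351 across lines.

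The labelled material was checked against markers fixed from gene symbols. Cab-m7, a chlorophyll a/b-binding protein gene of leaf cells, lay between 14.16 and 14.29 on the 4 arrays. It is 1 of 7 genes matched as mesophyll markers, of which 6 were tested, Cab-m7, lhcb5, Lhcb5-2, lhcb6 and the dikinase genes listed as PDK1 and C4ppdkZm1. Limma called 1 of these 6 genes at an adjusted p under 0.05, against 15.3% of all tested probe sets in either direction. The called gene was Lhcb5-2, at 11.94 and 12.30 in Cm489 and at 12.99 and 12.97 in F98908. Its difference was 0.86 (limma, adjusted p = 0.0468), and its part in the zap1 and m24 values was not tested. The bundle sheath marker rbcS, the small subunit of Rubisco, lay between 11.53 and 12.28. kn1, a homeobox gene of the shoot meristem, lay between 10.62 and 11.51 and so was bright in both lines. Against these, pep1, the phosphoenolpyruvate carboxylase of C4 mesophyll, was over log2 4 on Cm489 array 1 alone (5.44, against 1.91 on Cm489 array 2 and 1.86 on both F98908 arrays), and the NADP-malic enzyme gene me3 was dim on all 4 (2.99 in the mean of each line). Of 10 genes matched as kernel storage markers, 8 were dim on every array. The exceptions were gz27 on 1 of its probe sets (4.42 to 5.02) and GLB1 (LOC541815), also listed as Hb. GLB1 was at 7.70 and 8.94 in Cm489 and at 7.51 and 7.30 in F98908. It was matched by its symbol alone and is a separate locus from glb1 (LOC732801), which was dim at 2.46 to 2.49. GLB1 is therefore not read as a sign of kernel storage genes. Dim on every array too were 3 of 5 genes matched as pollen and anther markers, prf1, prf2 and prf3. The other 2, the profilin genes PRO4 and PRO5, were bright in both lines. They were matched by symbol alone and are not read as a sign of pollen or anther tissue. The root list held 1 gene, zrp4, at 10.99 and 10.78 in Cm489 and at 3.14 and 2.48 in F98908. Its level moved with the line in the same direction as zap1 and m24, and its part in their values was not tested.

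zap1 was clearly above the dim range in Cm489 and within it in F98908. Its log2 value was 5.34 on Cm489 array 1, 6.65 on Cm489 array 2, 2.59 on F98908 array 1 and 2.40 on F98908 array 2. Both Cm489 arrays were higher than both F98908 arrays, and the smallest distance between the lines was 2.75. The line means were 6.0 ± 0.92 in Cm489 and 2.50 ± 0.13 in F98908 (SD, n = 2 arrays each), which gives a difference of -3.50 (F98908 minus Cm489). Because the F98908 values are dim, the size is better given as a bound: raised to a floor of log2 4, they leave a difference of -2.00, or a level at least 3.99-fold lower in F98908.

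m24 showed the same contrast with the order of the Cm489 arrays turned. Its log2 value was 6.65 on Cm489 array 1, 5.45 on Cm489 array 2, 2.06 on F98908 array 1 and 1.80 on F98908 array 2. The lines did not overlap, and the nearest arrays of the 2 lines were 3.38 apart. The means were 6.05 ± 0.85 in Cm489 and 1.93 ± 0.19 in F98908 (SD, n = 2 arrays each), a difference of -4.12. At the floor of log2 4 the difference was -2.05, or at least 4.13-fold lower in F98908. In bulk material such as this, fewer cells that express a gene and less RNA in each cell cannot be told apart, and with a single probe set per gene neither can a lower transcript level and weaker binding of one line's allele to the probes.

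**Figure D1:**
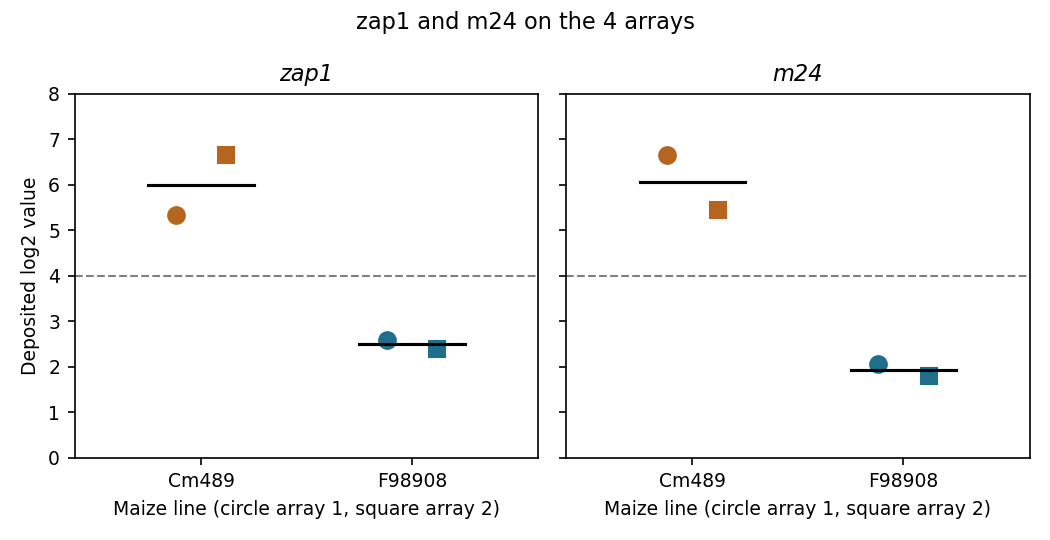
Deposited log2 values of zap1 (left) and m24 (right) on the 4 arrays, with circles for array 1, squares for array 2, black bars for the mean of each line and a dashed line at log2 4. Both Cm489 arrays lie above the line and both F98908 arrays below it for each gene, and Cm489 array 2 is the higher for zap1 (6.65) whereas array 1 is the higher for m24 (6.65).

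The spread within Cm489 was wide for both genes. For zap1 the Cm489 arrays differed by -1.31 (array 1 minus array 2), a 2.47-fold change, and 2.65% of the tested probe sets (298) differed by as much or more between these arrays. For m24 they differed by 1.20 in the opposite direction, a 2.30-fold change, matched or passed by 3.29% (370). These gaps set the size of the bound: taken from Cm489 array 1 alone, zap1 was at least 2.54-fold and m24 at least 6.27-fold lower in F98908, and from Cm489 array 2 alone at least 6.28-fold and at least 2.72-fold. The gaps between the F98908 arrays, 0.19 for zap1 and 0.26 for m24, lie in the dim range, where the order of values carries no information.

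Over all tested probe sets, limma called 8.02% lower in F98908 at an adjusted p under 0.05, a share given here as background only, since the pair's own difference carries no test. A pattern of over log2 5 on both Cm489 arrays and under log2 3 on both F98908 arrays was shown by 99 probe sets. Those with a gene symbol stand for 5 genes: zap1, m24, the glutathione transferase gene gst13 (on 1 of its probe sets), SE1A and LOC541679. The reverse pattern was shown by 116 probe sets, also with 5 named genes. These limits of log2 5 and 3 were set after the values were seen.

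**Figure D2:**
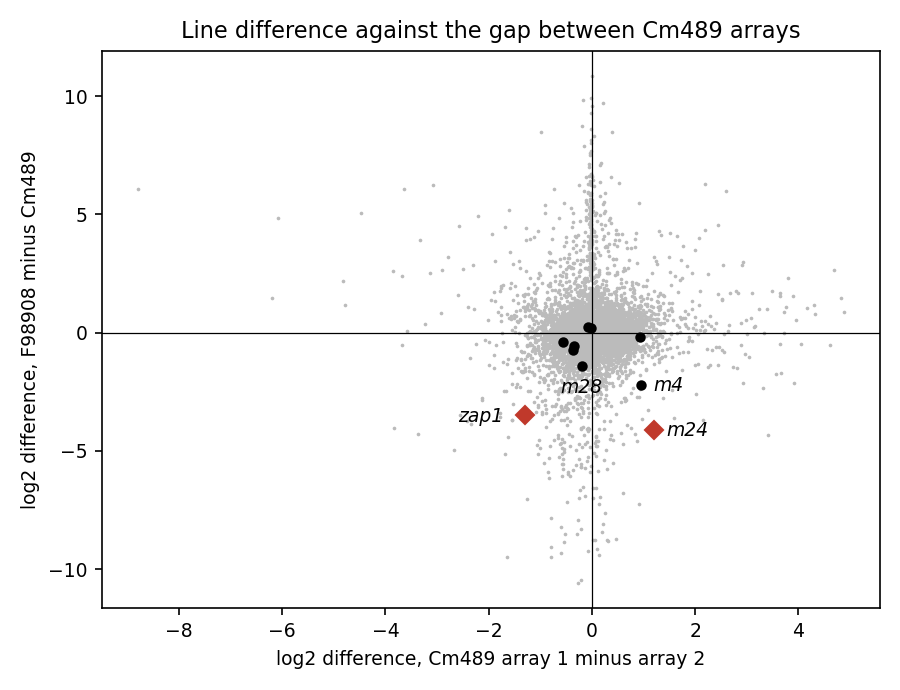
Difference between the lines (vertical axis, F98908 minus Cm489, log2) against the difference between the Cm489 arrays (horizontal axis, array 1 minus array 2, log2) for the 11262 tested probe sets in grey. zap1 (-1.31, -3.50) and m24 (1.20, -4.12), as red diamonds, lie low and on opposite sides of the vertical axis, and black points show the 8 other tested MADS-box genes.

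The other MADS-box genes put the pair in context. The annotation names 26 of them on 30 probe sets, and 8 of the 26 were over log2 4 on at least 2 arrays and so were tested. Of these 8, 2 fell in F98908, 0 rose and 6 did not pass, against a background of 8.02% of all tested probe sets called lower and 15.3% called in either direction. The median difference of the 8 was -0.49 and that over all tested probe sets -0.03, with 6 of the 8 below 0. With so few genes, and with the list drawn up when results of these arrays were known, this is a description of the family and not a test of it.

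Both called genes belong to the AP1/FUL clade, as zap1 does. m4 (LOC542041), whose activity in maize is tied to the floral transition of the shoot tip, was at 6.99 and 6.04 on the Cm489 arrays and at 4.59 and 4.03 on the F98908 arrays. The lines did not overlap, and m4 fell by 2.21 ± 0.41 SE on the log2 scale, a 4.62-fold change (limma, adjusted p = 0.0466). m28 (LOC542045, also listed as MADS67), known in maize for its effect on growth and grain yield when expressed more strongly, was at 10.87 and 11.07 in Cm489 and at 9.75 and 9.38 in F98908. It was bright in both lines, without overlap between them, and fell by 1.41 ± 0.18 SE, a 2.65-fold change (limma, adjusted p = 0.0210). Neither call was held when the F98908 arrays, which share an extract label, were counted as 1 sample (limma, adjusted p = 0.203 for m4 and 0.0979 for m28), with no filter on dim probe sets (0.137 and 0.0666) or when 1 array was dropped (0.0597 to 0.227 and 0.0674 to 0.112).

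The remaining member of that clade, m15 (LOC542032), a close relative of m4, was at 5.42 and 4.48 in Cm489 and at 5.31 and 4.24 in F98908. Its values overlapped between the lines, and its difference of -0.17 ± 0.53 SE did not pass (limma, adjusted p = 0.852). Array 1 was higher than array 2 by 0.94 in Cm489 and by 1.07 in F98908, but the labels do not pair the lines by array number. Of the AP1/FUL genes other than zap1, which carries no test, m4 and m28 were called and m15 was not. The background was 8.02% of all tested probe sets called lower and 15.3% called in either direction. With so few genes this describes the clade and does not test it.

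In the SEPALLATA clade m24 was the only gene over log2 4 on any array. The 6 others, which include m31 (LOC542040), a close relative of m24, and m6, m27, M14, M7 and M8, lay between 1.98 and 2.37 on their 8 probe sets, and their line means differed by at most 0.04. At these levels no difference between the lines was detectable.

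The floral organ genes were likewise dim in both lines. The 10 genes of the AGAMOUS, AGL6, B class and B sister clades lay between 1.92 and 2.44 on all 4 arrays. They include si1 and sts1, which specify stamens and lodicules, ZAG1, which acts in the inner floral organs, and bde1, which acts in floral meristem determinacy. The others are ZMM2, m1, zag2, ZAG5, m29 and m17. m25 and a gene listed as zmm2, which were put in no clade, were dim as well (1.86 to 2.33). These markers of floral organs were thus at or near background in Cm489, in which zap1 and m24 were over log2 5.

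The 5 tested genes of the SVP and SOC1 clades, which are known from vegetative tissue, gave no call, against 15.3% of all tested probe sets. m19 (LOC542033), the tunicate1 gene that gives pod corn when expressed in the ear, had means of 11.92 ± 0.05 in Cm489 and 12.17 ± 0.00 in F98908 (SD, n = 2 arrays each), a difference of 0.25 (limma, adjusted p = 0.183). The related SVP clade genes m26, m21 and m20 differed by 0.20, -0.40 and -0.74 (limma, adjusted p = 0.288, 0.314 and 0.0672). m21 has a second probe set, which lay at 1.92 to 1.95 on all arrays, so its probe sets disagree on the level. m5 (LOC542042), listed as SOC1 after the Arabidopsis integrator of flowering signals, was at 6.98 and 7.32 in Cm489 and at 6.57 and 6.59 in F98908. Its difference of -0.57 ± 0.16 SE did not pass (limma, adjusted p = 0.0953). At an unadjusted p under 0.05, limma's test found m20 and m5 among the 5. The matching share of all tested probe sets is not given here, so the finding of m20 and m5 is not read as a result. That share cannot be smaller than the 15.3% called after adjustment, because the adjustment never lowers a value.

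**Figure D3:**
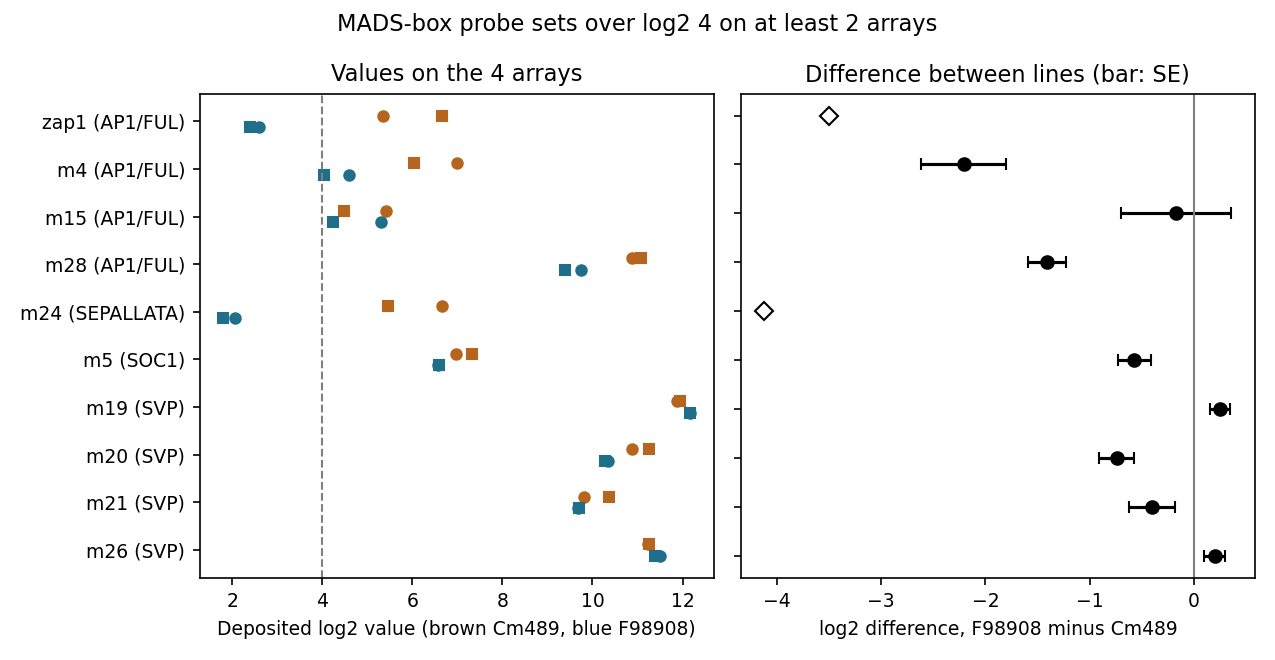
The 10 MADS-box genes with a probe set over log2 4 on at least 2 arrays, grouped by clade: log2 values per array on the left (brown Cm489, blue F98908, circle array 1, square array 2, dashed line at log2 4) and the log2 difference F98908 minus Cm489 on the right. Bars are the SE from limma, open diamonds mark zap1 and m24, which carry no test, and m4 (-2.21) and m28 (-1.41) are the called genes.

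Genes that act before or beside the MADS-box genes in flowering and inflorescence development gave no calls. Of 10 such genes on the array, 8 were not tested, among them id1, a regulator of the floral transition made in young leaves (2.05 to 2.06), zfl1, a homologue of Arabidopsis LEAFY (1.77 to 1.82 over its probe sets), and tb1, which represses axillary growth (2.03 to 2.05). ids1, an AP2-type gene of spikelet meristems, lay at the limit, between 3.90 and 4.01. The 2 tested genes were ub2, an SBP-box gene of inflorescence branching, and fea2, a receptor-like gene of the meristem size pathway. ub2 was at 8.54 and 8.07 in Cm489 and at 8.88 and 8.74 in F98908, a difference of 0.51 (limma, adjusted p = 0.185), and fea2 differed by -0.16 (limma, adjusted p = 0.482). Limma thus called 0 of 2, against 15.3% of all tested probe sets, both at an adjusted p under 0.05. At an unadjusted p under 0.05 limma also found 0 of 2. No share over all tested probe sets is given here for that limit, so this count is not read as a result.

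Of the 4 genes matched as meristem markers, 3 were tested and 0 called in limma's test, against 15.3% of all tested probe sets. An unadjusted p under 0.05 in that test was reached by 0 of the 3. The share of all tested probe sets at that limit was not worked out, so this count is not read as a result. The differences went in different directions, with -0.51 for kn1 and -0.32 for knox7, both higher in Cm489, and 0.99 for lg3, higher in F98908. None passed (limma, adjusted p = 0.312, 0.2 and 0.264). kn1 was at 10.77 and 11.51 in Cm489 and at 10.62 and 10.65 in F98908, and lg3, a related homeobox gene, at 7.18 and 8.48 and at 8.94 and 8.70. In Cm489 both were higher on array 2, as zap1 was and as m24 and m4 were not. Summed over the 4 meristem markers, with lg4b the dim one, the log2 values came to 29.1 and 31.4 in Cm489 and to 30.6 and 30.2 in F98908. The part of meristem content in the zap1 and m24 values was not tested.

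The annotation order adds a detail on m24 and m4. In RefSeq's gene order on the B73 reference the 2 genes lie close together with 2 annotated genes between them, and their relatives m31 and m15 are direct neighbours elsewhere in the genome. The deposited values name no build, so no positions are given. m24 and m4 were both lower in F98908, and both were higher on array 1 than on array 2 of Cm489 (by 1.20 and 0.95). Of the other genes within 5 places of m24, only Bk2L3, 2 places away, has a named probe set. Its 2 probe sets differed by -0.30 and -0.34 (limma, adjusted p = 0.254 and 0.174). The only gene within 5 places of zap1 with a named probe set was its neighbour ACK2, at 10.27 and 10.60 in Cm489 and at 10.25 and 10.23 in F98908 (limma, adjusted p = 0.454).

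The named genes most like each member were taken as those with the smallest Euclidean distance over the 4 arrays, after each gene's own mean was subtracted, among 725 other tested genes with 1 probe set each. Nearest to zap1 were gln3, a glutamine synthetase gene (distance 0.55), akh2, which encodes an aspartate kinase and homoserine dehydrogenase (0.56), the nitrilase gene NIT2 (0.62), the cystatin gene cpi2 (0.63) and SE1A (0.84). akh2, for example, was at 6.03 and 6.79 in Cm489 and at 3.48 and 3.13 in F98908, so it too was higher on Cm489 array 2. Nearest to m24 were the ribosomal protein gene RPS21 (0.74), the annexin gene Ann7 (0.90), the glutathione transferase gene GST38 (1.10), SE1A (1.35) and cpi2 (1.5). RPS21 was at 12.49 and 12.14 in Cm489 and at 7.82 and 7.80 in F98908. Its Cm489 arrays differed by 0.35 (array 1 minus array 2), against 1.20 for m24. The same difference was 0.08 for GST38, and it went the other way for Ann7 (-0.05), SE1A (-0.20) and cpi2 (-0.54). With 4 arrays a gene can be near only if its difference between the lines is like the member's, for which the members were chosen.

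zap1 and m24 were not each other's nearest genes. Their distance was 1.88, which placed m24 at rank 19 from zap1 and zap1 at rank 9 from m24. m4 stood at rank 10 from m24 (distance 1.93) and at rank 23 from zap1 (2.07). Most of the distance between zap1 and m24 lay on the Cm489 arrays, on which they took opposite orders.

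**Figure D4:**
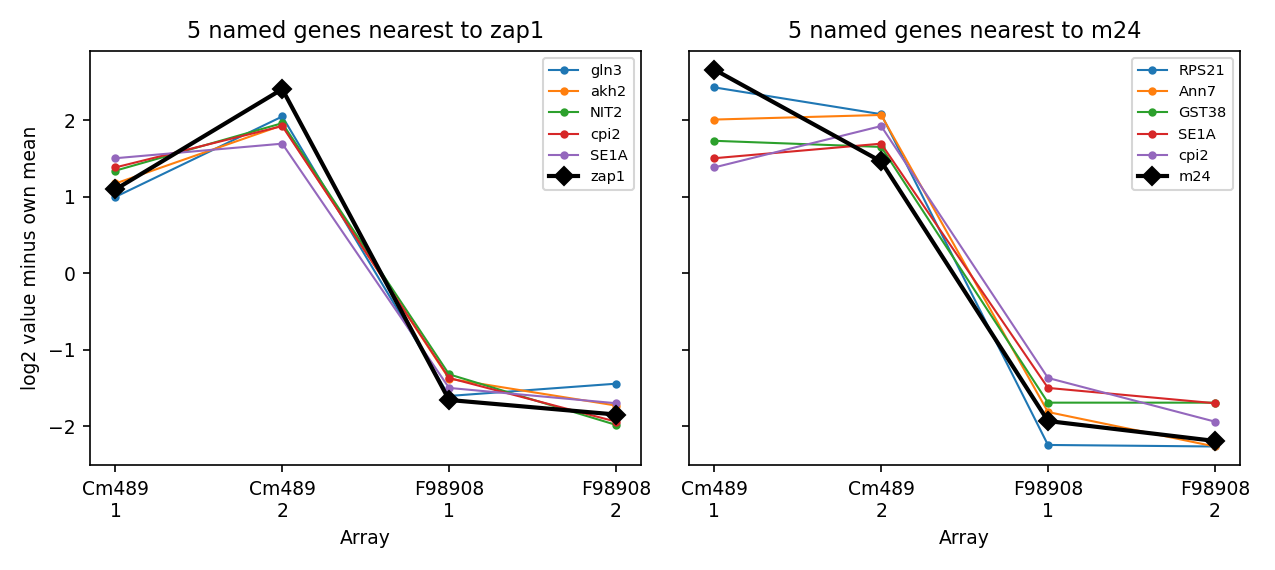
Log2 values minus each gene's own mean over the 4 arrays for zap1 (left) and m24 (right) in black, with the 5 nearest named genes in colour. All genes drop from the Cm489 to the F98908 arrays, zap1 with gln3 closest (distance 0.55) and m24 with RPS21 closest (0.74).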

How the data were processed

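The authors deposited 1 log2 value per probe set and array. Per the submitters' processing notes these are GCRMA values; the program's version is not given in the sources used here. The method brings the arrays to a common distribution, so a difference in total RNA output between lines is removed. Of 17734 probe sets, 113 array controls and 66 probe sets for reporter genes were left out; the rest were tested if over log2 4 on at least 2 of 4 arrays, which kept 11262 (64.2%). Arrays were grouped by the line given in the labels. The comparison of lines used limma 3.58.1 under R 4.3.3 (lmFit and eBayes, two-sided, without a block), with Benjamini-Hochberg adjustment over all tested probe sets. The fit was tested on simulated data. The number of arrays limits the precision.

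Gene names came from the platform annotation and the RefSeq table (Zm-B73-REFERENCE-NAM-5.0), which held 1060 of the 1108 named genes. The members, gene lists and tests were chosen with earlier results of these data known. MADS-box and flowering genes were matched by symbol pattern; a gene listed as both ap1 and Px11 was left out of the MADS-box list after matching, and clades were assigned from background knowledge. The text names every probe set of zap1 and m24, all other MADS-box genes, the flowering list's gene with the smallest p, the markers over the filter, and the 5 genes nearest to each member; other genes named, such as neighbours, dim markers, fea2, id1, zfl1, tb1 and ids1, were chosen after their values were seen. Alternatives changed the filter, the floor, the scaling, the variance model, the block and the arrays used.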

Additional observations from a re-analysis of the deposited data

How the results depend on the processing

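The zap1 difference of -3.50 became -2.00 and the m24 difference of -4.12 became -2.05 with dim values raised to log2 4. With each array left out in turn they ran from -4.15 to -2.85 and from -4.72 to -3.52, and quantile normalisation gave -3.49 and -4.13. Leaving out 1 array could not change either sign, because the lines did not overlap for either gene. The count of 2 other MADS-box genes called was 0 with no filter on dim probe sets, 0 with the F98908 arrays as 1 sample, from 0 to 0 with each array left out, and 1 with a mean over log2 6, where m4 was not among the tested genes. It stayed at 2 at the floor, after quantile normalisation and with an intensity trend. The flowering list had 0 calls throughout. The m15 difference ran from -0.71 to 0.36 with each array left out and was above 0 without Cm489 replicate 1 (0.30) and without F98908 replicate 2 (0.36), uncalled in all of these. The cause of these changes was not tested, apart from the fewer arrays or genes that an alternative uses.

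Over all tested probe sets 819 were called higher and 903 lower. With each array left out the counts ran from 257 to 543 and from 176 to 536, with F98908 as 1 sample they were 248 and 170, and with a mean over log2 6 there were 505 higher. In these fits with 3 samples the spread comes from the 2 arrays of 1 line, and the lone sample is assumed to vary like them. The labels do not say that array numbers pair the lines. With the array number as a replicate block 409 were called higher and 371 lower, with 1 other MADS-box gene called, m4 (limma, adjusted p = 0.0243, against 0.0718 for m28). Array differences of the lines correlated at -0.365 over tested probe sets, and the crossed block, chosen after seeing the data, gave 885 and 968 calls and 1 MADS-box gene, m28 (0.0197, against 0.0794 for m4).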
